A study of Mus musculus with 10 samples.

Results

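The Rab GTPases were taken as all genes whose symbol is Rab followed by a number and at most a short letter suffix. On the array 95 probe sets were annotated to 1 such gene each. They read 50 Rab genes of the 12393 genes with a single-gene probe set, and each gene was represented by the probe set with the highest mean over the 10 arrays. The arrays held RNA of individual cerebral cortices from male mice of 6 months. Of these mice, 5 were labelled *p97FE65* wild type and 5 were labelled *p97FE65* null. The null allele removes the full-length form of the adaptor protein FE65 (gene symbol Apbb1). The null line was made in R1 ES cells, which come from another strain, and these were injected into C57Bl/6J blastocysts. Both groups came from 10 generations of backcrossing to C57Bl/6J. The study still found sequence of the ES cell strain in null mice at variant positions in Gprc5b and in Homer2, on either side of the targeted gene. It did not map the whole retained stretch. By the study's methods the mice were 5 pairs of littermates, 1 of each genotype, but the labels do not say which arrays are littermates, so the tests are unpaired. The labels name no treatment. Values are GC-RMA log2 expression values, on which 1 unit is a doubling, and a difference is the mean of the null-labelled arrays minus the mean of the wild type-labelled arrays.

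Rab proteins are small GTPases that mark the membranes of the secretory and endocytic pathways. In the GTP-bound form, which exchange factors (GEFs) produce, a Rab protein sits on a vesicle or organelle and recruits effectors for transport, tethering and fusion. GTPase-activating proteins (GAPs) end this state, and GDP dissociation inhibitors (GDIs) hold the inactive protein in the cytosol, with its prenyl anchor covered. In cortical neurons Rab3 proteins sit on synaptic vesicles, Rab5 and Rab11 proteins move receptors through early and recycling endosomes, and Rab1, Rab2 and Rab6 proteins serve traffic between the endoplasmic reticulum and the Golgi.

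Array medians were 3.01 to 3.14, and array pairs correlated at 0.994 to 0.999 over all probe sets, so no array had been deposited more than once. Which genotype stands behind each label was not settled here, and the values of Gprc5b and FE65 ran against the labels. The Gprc5b probe set with the largest difference, for an orphan receptor, spanned 7.07 to 7.74 in the group labelled wild type and 4.71 to 6.92 in the group labelled null, which is the opposite direction to the study's tables. Every signed value of the Rab genes below therefore goes by the labels of the arrays, and its sign would turn if the labels were exchanged. The 2 FE65 probe sets read a part of the transcript that the knockout keeps, so a loss of FE65 signal was not available as a check. Under the labels both were higher in the null group, by 0.11 (SE 0.10) for 1423892_at (10.85 to 11.13 under the label wild type and 10.80 to 11.37 under the label null) and by 0.26 (SE 0.06) for 1423893_x_at (10.98 to 11.23 and 11.30 to 11.51, without overlap). This too is the opposite direction to the one the study gives for them. For Gprc5b and FE65 alike, the sizes match the fold changes of the study with the sign turned. By RT-PCR the study also found the region that this Gprc5b probe set reads to be higher in null forebrains. Of the cortical markers, 3 of 4 measured neuronal genes, 5 of 5 astrocyte genes and 3 of 4 oligodendrocyte genes had a mean of at least 5, while Rbfox3 and Olig2 lay below it. Of the microglia genes 2 of 5 had such a mean, and of the endothelial genes 1 of 5. The median difference of the measured markers was -0.25 for oligodendrocytes, -0.10 for neurons, -0.07 for endothelium, 0.02 for astrocytes and 0.03 for microglia, and the part of cell makeup in the Rab values was not tested. The p-values measure the spread between these mice, and in whole cortex fewer cells of a type and less RNA per cell cannot be told apart.

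Expression of the Rab genes in cortex differed little between the labels. No Rab gene passed an adjusted p of 0.05 in limma (0 of 50, against 0% of all 12393 genes), and the lowest adjusted p of a Rab gene was 0.999. At an unadjusted p under 0.05, limma had 1 Rab gene higher in the null-labelled arrays, Rab3d, where 1.33% of all genes were, and 1 lower, Rab9, where 2.61% of all genes were. The methods' *t*-test had 1 higher, Rab3d, and 1 lower, Rab1a in place of Rab9, and 0 after adjustment. The groups did not overlap for 1 Rab gene, again Rab3d, with the null-labelled arrays higher, where 0.315% of all genes had this pattern, and for 0 Rab genes with these arrays lower, where 0.371% had it. These counts are near the background. The background itself leaned the other way with quantile normalization, under which 334 genes were higher and 221 lower at an unadjusted p, in place of 165 and 323. With the mean over all probe sets of a gene in place of the brightest one, the counts for higher Rab genes became 0 on both measures.

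The Rab genes split evenly, with 25 higher and 25 lower in the null-labelled arrays. Their median difference was 0.0016, beside -0.0021 over all genes, and its sign changed with the setting. The median size of the difference was 0.07, beside 0.05, and 32 of the 50 genes (64%) had group means within 0.1 of each other, where 75.7% of all genes did. Dim genes differed less, with a median size of 0.04 both for the 17 Rab genes with a mean under 5 and for all 7472 such genes. Among genes with a mean of at least 5, which 33 of the 50 Rab genes had, the median size was 0.08 both for the Rab genes and for all 4921 such genes, and 60.6% of the Rab genes and 58.4% of all genes lay within 0.1. Of these 33 Rab genes, 13 were higher and 20 lower (60.6% lower, median -0.04), where 65.1% of all such genes were lower (median -0.04). Of the 17 dimmer Rab genes, 12 were higher and 5 lower, where 42.0% of all dim genes were lower.

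How large a difference in signal the arrays could have missed was read from the 95% confidence intervals of the fit. For 43 of the 50 Rab genes the interval lay within 1.4-fold in either direction, a share of 86%, beside 90.7% of all genes. Among those with a mean of at least 5 it was 27 of 33 (81.8%), beside 81.1%. The other 16 were genes with a mean under 5. Their group's median within-group SD was 0.10, beside 0.16 for the 33. Whether a change in RNA shows in full at such low signal was not tested. The narrow intervals of these 16 genes therefore do not exclude a 1.4-fold change in RNA. The intervals that reached past 1.4-fold were those of Rab3c, Rab9, Rab27b, Rab5c, Rab40b, Rab33a and Rab4b. Fitted differences ran from -0.25 (Rab3c) to 0.34 (Rab33a).

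**Figure D1:**
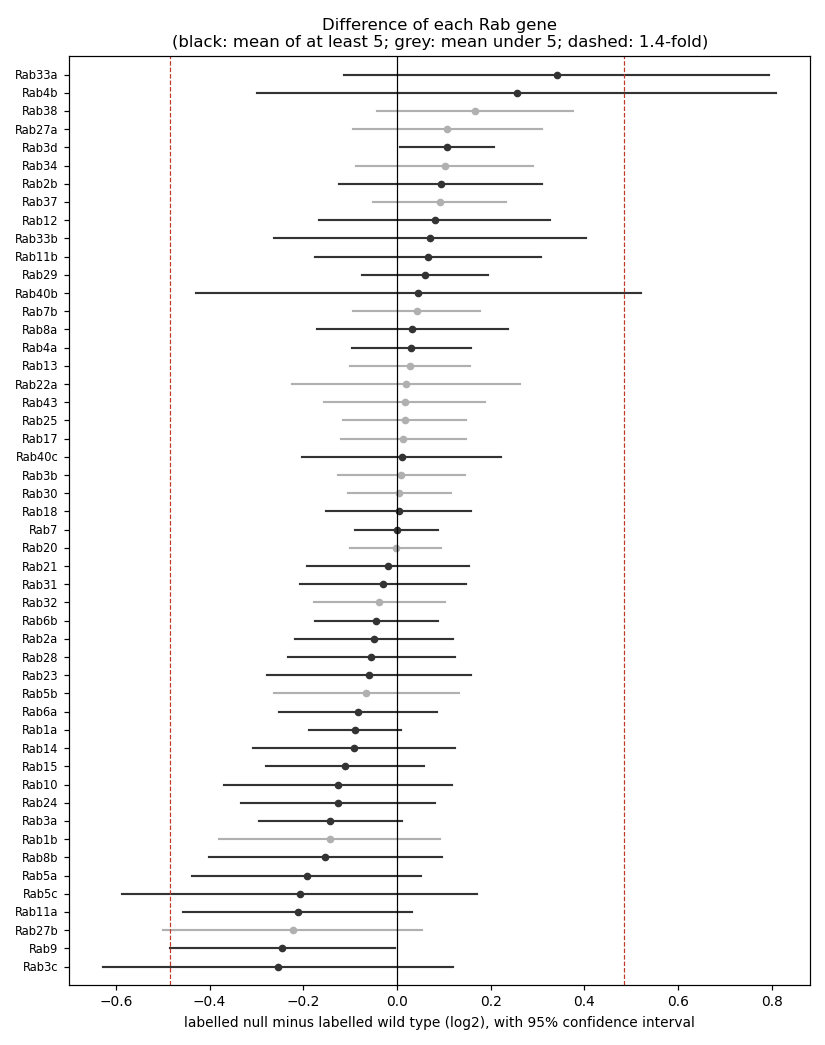
Difference of each of the 50 Rab genes (horizontal axis, labelled null minus labelled wild type, log2; points with 95% confidence intervals from limma), ordered by size, with dashed lines at 1.4-fold. Genes with a mean under 5 are grey, and 43 intervals lie within the dashed lines.

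Promoter sequences were set beside the signal, since 33 of the Rab genes had a mean of at least 5 in cortex and 17 did not. RefSeq promoters on GRCm38.p6, from 250 bases before to 50 after the start, were matched for 42 of the 50 genes. They held a median of 21.5 CpG dinucleotides, beside 18 over 9887 genes of the array and 7 over all 27025 promoters. The 30 matched Rab genes with a mean of at least 5 had a median of 24.5 (range 7 to 43), and the 12 dimmer ones 15.5 (range 5 to 30). The 2 shown are those of Rab6a, the neighbour of FE65 with high signal (chr7:100607336-100607635, plus strand), and Rab3d, the gene without overlap (chr9:21918134-21918433, minus strand), with CpG dinucleotides in capitals.
Rab6a: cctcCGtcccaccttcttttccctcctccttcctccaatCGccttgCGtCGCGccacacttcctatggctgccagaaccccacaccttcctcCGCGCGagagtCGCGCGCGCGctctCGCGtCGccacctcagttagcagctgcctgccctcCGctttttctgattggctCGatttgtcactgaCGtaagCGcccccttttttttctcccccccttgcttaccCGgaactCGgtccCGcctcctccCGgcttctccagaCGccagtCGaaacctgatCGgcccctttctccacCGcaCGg
Rab3d: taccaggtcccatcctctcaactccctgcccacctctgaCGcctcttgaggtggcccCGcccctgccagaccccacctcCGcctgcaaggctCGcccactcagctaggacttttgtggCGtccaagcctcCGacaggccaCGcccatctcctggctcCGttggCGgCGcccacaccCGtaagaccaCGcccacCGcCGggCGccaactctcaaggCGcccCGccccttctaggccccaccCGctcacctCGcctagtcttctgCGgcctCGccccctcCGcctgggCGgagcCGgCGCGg

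The Rab6a promoter held 29 CpG dinucleotides at a GC content of 62.7%, and that of Rab3d 26 at 71%. On either strand, the GC box GGGCGG was present in 71.4% of the matched Rab promoters, beside 57.5% for genes of the array and 35.9% of all promoters, and the E-box CACGTG in 11.9%, beside 9.33% and 7.24%. The motif TGACG, a part of the cyclic AMP response element, was in 57.1%, beside 28.4% and 21.0%. It was present in both printed promoters, and the GC box in that of Rab3d alone. The backgrounds were not split by signal, and 33 of the 50 Rab genes had a mean of at least 5, against 4921 of all 12393 genes. The part of signal level in the CpG medians and motif shares was not tested. A letter match describes the sequence and is no evidence of a bound factor.

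By role, the Rab genes of the secretory vesicles come first, since they serve transmitter release. Of 7 such genes, 4 were higher and 3 lower, 1 passed the unadjusted threshold, and the median difference was 0.01. Rab3a is the main Rab of synaptic vesicles and controls the late steps of their exocytosis. Its probe set 1422589_at measured 11.45, 11.28, 11.38, 11.24 and 11.23 on the wild type-labelled arrays (replicates 1 to 5, the order kept below) and 11.24, 11.08, 11.16, 11.35 and 11.04 on the null-labelled arrays. The groups overlapped, with null replicate 4 above all but 2 of the wild type-labelled arrays and null replicate 1 just above the 2 lowest of them, and the difference was -0.14 (SE 0.07, exact permutation p = 0.0952, two-sided).

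Rab3d, a Rab3 protein known for large secretory granules, was the gene whose groups separated. Probe set 1418890_a_at measured 6.35, 6.33, 6.32, 6.34 and 6.37 on the wild type-labelled arrays, and 6.39, 6.56, 6.51, 6.40 and 6.39 on the null-labelled arrays. The lowest null-labelled array lay only 0.02 above the highest labelled wild type, and null replicates 2 and 3 stood above the rest. The means were 6.34 ± 0.02 and 6.45 ± 0.08 (SD, n = 5 each), a difference of 0.11 (SE 0.05) or 1.08-fold. The exact permutation test gave p = 0.00794, the smallest that 5 against 5 arrays can give. Groups of 5 without overlap always give this value, so it restates the separation and adds no support. In limma the unadjusted p was 0.0381 and the adjusted p 0.999, with 0.469 to 1 over the alternative fits of the named genes. The unadjusted call was lost in 6 of the 10 fits that left out an array, namely null replicate 2 or 3 or wild type replicate 1, 2, 3 or 4. The 3 dimmer probe sets of Rab3d had overlapping groups and differences of 0.10, 0.10 and -0.13, and the mean of all 4 differed by 0.05 (SE 0.05).

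The remaining members of this group are Rab3b and Rab3c, relatives of Rab3a on synaptic vesicles, Rab27a and Rab27b, which dock secretory granules, and Rab37. Rab3c, by probe set 1449494_at, measured 5.61, 6.01, 6.30, 6.47 and 6.00 on the wild type-labelled arrays and 5.50, 5.74, 5.90, 5.74 and 6.23 on the null-labelled arrays. The ranges overlapped over most of their length, with a difference of -0.25 (SE 0.17, exact permutation p = 0.222) that was -0.16 without wild type replicate 4 and -0.10 with the mean over probe sets. Rab27b, read by 1417214_at with a mean of 4.79, lay between 4.76 and 5.17 in the first group and between 4.41 and 5.01 in the second, a difference of -0.22 (SE 0.12), or -0.11 with the mean over probe sets. The other 3 genes also had means under 5. Rab27a (1454438_at) lay between 3.06 and 3.49 under the label wild type and between 3.21 and 3.56 under the label null, a difference of 0.11 (SE 0.09). It was 0.06 without wild type replicate 5 or null replicate 3, 0.17 without wild type replicate 3 and 0.03 with the mean over probe sets. Rab3b (1422583_at) lay between 3.54 and 3.72 and between 3.52 and 3.83, and its difference of 0.01 (SE 0.06) changed sign with array weights and when single arrays were left out. Rab37 differed by 0.09 (SE 0.06) at a mean of 2.89.

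**Figure D2:**
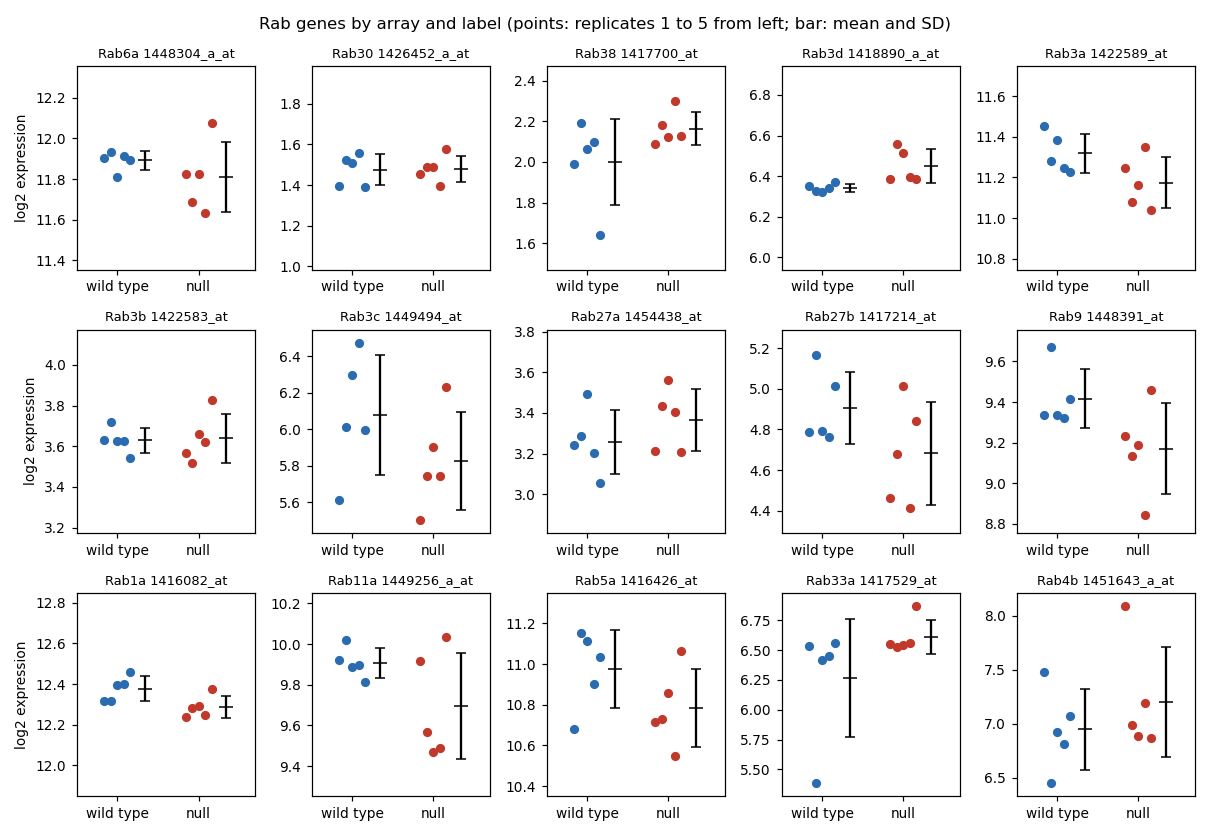
Log2 expression of 15 Rab genes (vertical axis) on each array, with the wild type-labelled arrays in blue and the null-labelled arrays in red. Points run from replicate 1 to 5 from left to right, bars give the mean and SD, and each vertical axis spans at least 1 log2 unit. Rab3d is the panel without overlap.

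Early endosomal Rab genes numbered 8, of which 6 were lower and 2 higher, all with overlapping groups and a median difference of -0.03. Rab5a drives fusion of early endosomes. It measured 10.68, 11.15, 11.11, 10.90 and 11.03 on the wild type-labelled arrays by probe set 1416426_at, and 10.71, 10.73, 10.86, 10.55 and 11.06 on the null-labelled arrays. All null-labelled arrays but replicate 4 lay within the range of the wild type-labelled arrays, whose lowest was replicate 1, and the difference was -0.19 (SE 0.11, exact permutation p = 0.159). Its relative Rab5c lay between 8.05 and 8.25 under the label wild type and between 7.22 and 8.34 under the label null (difference -0.21, SE 0.17). Rab21, which takes part in integrin endocytosis, differed by -0.02 (SE 0.08), and Rab31, also known as Rab22b, by -0.03 (SE 0.08). The dim members Rab5b, Rab17, Rab20 and Rab22a differed by -0.07 to 0.02.

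Recycling endosomes were represented by 7 genes, 4 higher and 3 lower, with a median difference of 0.02. Rab11a, which returns receptors from recycling endosomes to the surface, measured 9.92, 10.02, 9.89, 9.89 and 9.81 by probe set 1449256_a_at on the wild type-labelled arrays. The null-labelled arrays gave 9.92, 9.57, 9.47, 9.49 and 10.03. Null replicates 2, 3 and 4 lay below all wild type-labelled arrays, whereas null replicate 5 was above all of them, and the difference was -0.21 (SE 0.11, exact permutation p = 0.151). A second probe set of Rab11a, 1434549_at, differed by -0.10 (SE 0.11). Rab11b, the paralog that is enriched in brain, had the other sign, 0.07 (SE 0.11), and whether the 2 paralogs differed in their change was not tested. Rab4a, a Rab of fast recycling, differed by 0.03 (SE 0.06), Rab14, which links Golgi and endosomes, by -0.09 (SE 0.10) and Rab15 by -0.11 (SE 0.08). The other probe sets of Rab14 differed by -0.38 (1419244_a_at, SE 0.19) to -0.0035 (1419243_at, SE 0.09). The interval of 1419244_a_at, with a mean of 9.07, ran from -0.81 to 0.05 and so past 1.4-fold. The dim Rab25, an epithelial relative of Rab11, differed by 0.02 (SE 0.06).

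Rab4b, the paralog of Rab4a, had the largest standard error of the 50 genes. Probe set 1451643_a_at gave 7.48, 6.45, 6.93, 6.81 and 7.07 on the wild type-labelled arrays, and 8.09, 6.98, 6.89, 7.19 and 6.86 on the null-labelled arrays. Replicate 1 was the highest array in both groups, and the difference of 0.26 (SE 0.25) became 0.03 (SE 0.18) without null replicate 1. It was 0.13 with wild type replicate 2 omitted and 0.39 with wild type replicate 1 omitted.

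Late endosomal and lysosomal Rab genes numbered 9, with 5 higher, 4 lower and a median difference of 0.04. Rab7, which directs late endosomes to fusion with lysosomes, had the narrowest interval of the 50 genes. Its arrays lay between 11.79 and 11.89 under the label wild type and between 11.75 and 11.89 under the label null, and the interval of the difference ran from -0.09 to 0.09. Rab9 moves mannose 6-phosphate receptors from late endosomes to the Golgi. It measured 9.34, 9.67, 9.34, 9.32 and 9.42 by 1448391_at on the wild type-labelled arrays, and 9.23, 9.13, 9.19, 8.84 and 9.46 on the null-labelled arrays. All but null replicate 5 among the null-labelled arrays lay below every wild type-labelled array. The difference was -0.25 (SE 0.11), with an unadjusted p of 0.046 and an adjusted p of 0.999 in limma and an exact permutation p of 0.0635. The unadjusted call was lost in 8 of the 10 fits that left out an array, all but those that omitted wild type replicate 4 or null replicate 5, and the difference ranged from -0.32 (without null replicate 5) to -0.16 (without null replicate 4) when single arrays were left out. Rab24, linked to autophagy, differed by -0.13 (SE 0.09), Rab12 by 0.08 (SE 0.11) and Rab29, a partner of the kinase Lrrk2, by 0.06 (SE 0.06). Of the dim members beside Rab38, Rab7b differed by 0.04 (SE 0.06), Rab32 by -0.04 (SE 0.06) and Rab34 by 0.10 (SE 0.09).

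Traffic between the endoplasmic reticulum and the Golgi was represented by 11 genes, 6 higher and 5 lower, with a median difference of 0.0041. Rab1a carries vesicles from the endoplasmic reticulum to the Golgi. Its probe set 1416082_at measured 12.32, 12.32, 12.39, 12.40 and 12.46 on the wild type-labelled arrays and 12.24, 12.28, 12.29, 12.25 and 12.38 on the null-labelled arrays. Here too null replicate 5 was the 1 null-labelled array that reached into the other range, and the difference was -0.09 (SE 0.04) with an exact permutation p of 0.0397 and an adjusted p of 0.999 in limma. The interval of Rab1a, from -0.19 to 0.01, lay within 1.4-fold. Rab2a differed by -0.05 (SE 0.08), Rab6b, the neuronal Rab6, by -0.04 (SE 0.06) and Rab18, a Rab of the endoplasmic reticulum and lipid droplets, by 0.0041 (SE 0.07). Rab2b and Rab33b, the latter known for a role in autophagosome formation, differed by 0.09 (SE 0.10) and 0.07 (SE 0.15), and the dim Rab1b and Rab43 by -0.14 (SE 0.11) and 0.02 (SE 0.08).

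Rab33a, a Golgi-derived vesicle Rab with a role in axon growth, had the largest difference of the 50 genes by their brightest probe sets. By probe set 1417529_at it measured 6.53, 5.39, 6.42, 6.45 and 6.56 on the wild type-labelled arrays, and 6.55, 6.53, 6.54, 6.56 and 6.87 on the null-labelled arrays. Wild type replicate 2 was far below the other arrays and null replicate 5 above them, while the remaining 8 arrays lay between 6.42 and 6.56. The difference of 0.34 (SE 0.20, exact permutation p = 0.0635) became 0.12 (SE 0.08) without wild type replicate 2 and 0.17 with array weights.

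For Rab proteins of exocytosis and the cilium, 2 of 6 genes were higher and 4 lower, with a median of -0.06. Rab8a and Rab8b, which carry cargo from the Golgi to the plasma membrane and the cilium, differed by 0.03 (SE 0.09) and -0.15 (SE 0.11). Rab10, a Rab of axonal membrane addition, differed by -0.13 (SE 0.11), and Rab23, an antagonist of hedgehog signalling, by -0.06 (SE 0.10). Rab28, a Rab of cilia, differed by -0.05 (SE 0.08) and the dim Rab13 by 0.03 (SE 0.06). A second Rab28 probe set, 1453406_a_at, differed by -0.23 (SE 0.16). Rab40b and Rab40c, whose proteins join ubiquitin ligase complexes, differed by 0.05 (SE 0.21) and 0.01 (SE 0.10).

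Rab genes near FE65 were of separate interest, because FE65 lies on chromosome 7 and the sequence that flanks a targeted gene can differ between the groups. The gene order was that of RefSeq on GRCm38.p6, in which 958 measured genes lie on chromosome 7. Rab6a lay 48 measured genes from Apbb1, Rab30 84 and Rab38 97, all 3 between Homer2 and Apbb1, and Rab4b lay 443 genes away, outside the stretch from Homer2 to Gprc5b. Brightest-probe differences in this stretch included 0.41 for Homer2 (SE 0.07) and 0.26 for Apbb1 (SE 0.06), and -1.23 (SE 0.36) for the Gprc5b probe set named at the start, while the brightest Gprc5b probe set differed by -0.14 (SE 0.18).

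Rab6a, which acts in transport within and from the Golgi, measured 11.91, 11.93, 11.81, 11.92 and 11.90 by 1448304_a_at on the wild type-labelled arrays. The null-labelled arrays gave 11.82, 11.69, 11.83, 11.63 and 12.08. Null replicates 2 and 4 were the lowest arrays and null replicate 5 the highest, and the difference was -0.08 (SE 0.08, exact permutation p = 0.317) with an interval from -0.25 to 0.09. It was -0.04 without null replicate 4, -0.05 without null replicate 2 and -0.15 without null replicate 5, and -0.03 with quantile normalization and -0.04 with the mean over probe sets. A second probe set, 1448305_at, spanned 10.97 to 11.84 under the label wild type and 11.44 to 11.72 under the label null.

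Rab38, known for the biogenesis of melanosomes and related organelles, and Rab30, a Golgi Rab, had means of 2.08 and 1.48, under the mean of 5 that marks dim genes here. Rab38 (1417700_at) measured 1.99, 2.19, 2.07, 2.10 and 1.64 on the wild type-labelled arrays and 2.09, 2.18, 2.12, 2.30 and 2.13 on the null-labelled arrays. Wild type replicate 5 was the lowest by far, the other arrays overlapped, and the difference of 0.17 (SE 0.09, exact permutation p = 0.111) became 0.08 (SE 0.06) without this array. None of the 4 melanocyte markers (Mitf, Tyr, Dct and Pmel) had a mean of 5. Rab30 (1426452_a_at) averaged 1.48 ± 0.08 under the label wild type and 1.48 ± 0.06 under the label null (SD, n = 5 each), with overlapping groups and a difference of 0.0052 (SE 0.05) whose sign depended on the setting, being -0.0082 with quantile normalization and -0.0031 with array weights.

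**Figure D3:**
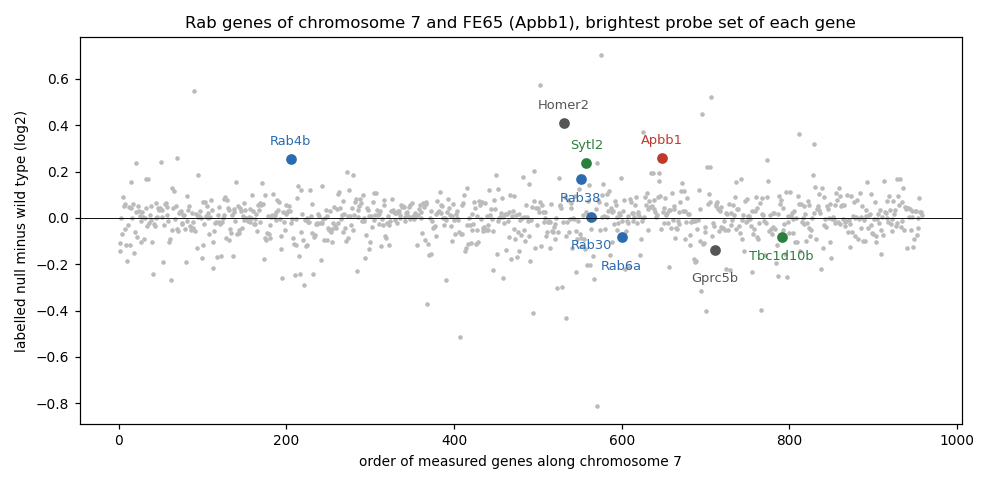
Group difference (vertical axis, labelled null minus wild type, log2, brightest probe set) for the 958 measured genes of chromosome 7 in their order along the chromosome (horizontal axis). Rab genes are blue, the effector Sytl2 and the GAP Tbc1d10b green, FE65 (Apbb1) red and the other named genes dark grey; Rab6a lies at -0.08, Rab38 at 0.17, Rab30 at 0.0052 and Rab4b at 0.26.

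The genes that act on Rab proteins were counted by the same rules. Of 105 listed GEFs, GAPs, effectors and GDI or prenylation genes, 62 were measured, and 0 passed the adjusted threshold in limma (lowest adjusted p 0.975). At an unadjusted p in limma, 3 were higher (background 1.33%) and 0 lower (2.61%). The methods' *t*-test had 2 higher and 3 lower, where 202 and 236 of all 12393 genes were. Groups did not overlap for 1 higher gene (0.315%) and 2 lower genes (0.371%). The median difference was -0.02, and differences ran from -0.48 (Rims2, SE 0.27, a Rab3 effector of the active zone) to 0.28 (Bicd2). By role, the unadjusted calls were 2 of 28 effectors and 1 of 16 GAPs, with 0 of 11 GEFs and 0 of 7 GDI and prenylation genes.

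Sytl2 (1421594_a_at), an effector that links Rab27 to secretory vesicles, had the smallest p of these genes. It measured 9.29, 9.21, 9.22, 9.32 and 9.36 on the wild type-labelled arrays, and 9.45, 9.58, 9.45, 9.58 and 9.53 on the null-labelled arrays. All null-labelled arrays lay above all the wild type-labelled arrays, which by itself fixes the exact permutation p at 0.00794. For Sytl2 the difference was 0.24 (SE 0.05, interval 0.13 to 0.34), with an adjusted p of 0.975 in limma. Its unadjusted p stayed under 0.05 in all 19 alternative fits, all of them without an adjusted call. In the gene order Sytl2 lies between Rab38 and Rab30, 90 measured genes from Apbb1. Of its partners, Rab27a differed by 0.11 (SE 0.09) and Rab27b by -0.22 (SE 0.12), both with overlapping groups. The part of flanking strain sequence, or of strain differences under the probes, was not tested.

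Tbc1d23 (1426899_at), a protein of the GAP family that tethers vesicles at the Golgi, lay between 5.98 and 6.12 under the label wild type and between 6.12 and 6.27 under the label null, a difference of 0.12 (SE 0.04). Rufy1, an endosomal effector of Rab4 and Rab14, differed by 0.23 (SE 0.10), and Bicd2, which joins Rab6 vesicles to dynein, by 0.28 (SE 0.13). Both had overlapping groups, and Bicd2 differed by only 0.08 (SE 0.06) with the mean over its probe sets. The 2 genes whose null-labelled arrays were all lower were GAPs, Tbc1d10b on chromosome 7 at -0.08 (SE 0.04) and the dim Tbc1d13 at -0.09 (SE 0.04). Tbc1d10b lay between 10.57 and 10.69 under the label wild type and between 10.46 and 10.56 under the label null, so the gap between the groups was narrow, and with quantile normalization the difference was -0.01 (SE 0.05). It lies beyond Gprc5b in the gene order, 143 measured genes from Apbb1. Lower values with overlap were found for Rilpl1, an effector of Rab8 and Rab10 (-0.25, SE 0.12), and for Rin1, a GEF of Rab5 (-0.21, SE 0.11). Rilpl1 was at -0.16 without wild type replicate 2 and -0.11 with the mean over probe sets, and Rin1 at -0.13 without null replicate 4 and -0.14 without wild type replicate 4. Gdi2, a widely expressed GDI, lay between 11.98 and 12.24 under the label wild type and between 11.89 and 12.39 under the label null (-0.07, SE 0.09), and the difference ran from -0.16 (null replicate 5 omitted) to -0.03 (null replicate 1 omitted). It was -0.04 with wild type replicate 3 omitted and -0.11 with array weights.

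One array stood apart, in the Rab genes and over all genes with a mean of at least 5. Null replicate 5 had the highest value of all 10 arrays for 14 of the 33 Rab genes with a mean of at least 5, and 26 of the 33 lay above their own mean there. These counts were not made over all such genes, so they are not shown to be particular to the Rab genes. The median deviation of these Rab genes from their means was 0.18 on this array. For all genes with a mean of at least 5 it was 0.11, also the highest of the 10 arrays. On the other 4 null-labelled arrays it was between -0.08 and -0.06, beside -0.06 to -0.03 for all genes, and on the wild type-labelled arrays between -0.02 and 0.04. The summed astrocyte markers were also highest on null replicate 5 (45.9, beside 43.8 to 44.9 on the wild type-labelled arrays), as were the summed microglia markers (21.1, beside 19.8 to 20.9 on the other 9 arrays). The summed oligodendrocyte markers were 30.4 on this array, beside 28.6 to 29.5 on the other null-labelled arrays and 29.7 to 31.8 on the wild type-labelled arrays. The part of these markers in the Rab values was not tested. The 3′ minus 5′ values of Gapdh and Actb on this array, 0.08 and 0.0065, lay inside the range of the others.

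**Figure D4:**
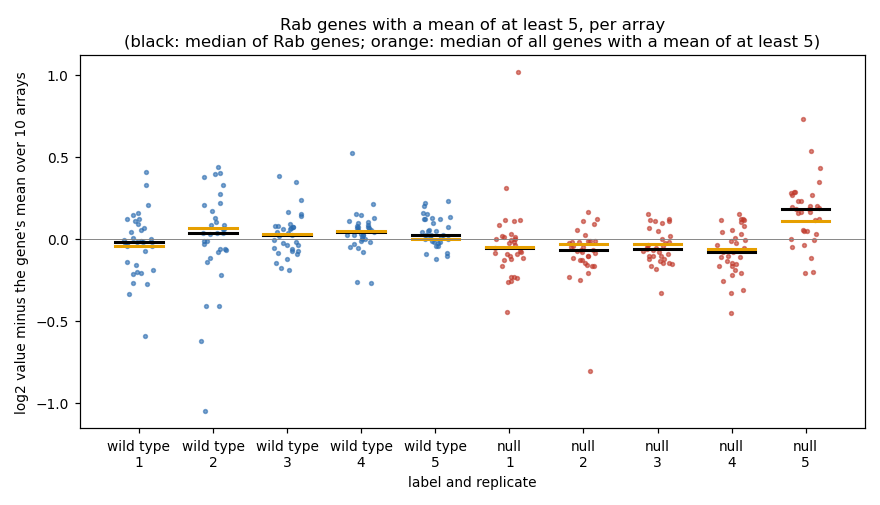
Deviation of each of the 33 Rab genes with a mean of at least 5 from its own mean over the 10 arrays (vertical axis, log2), by label and replicate. Black lines are the medians of the Rab genes and orange lines those of all genes with a mean of at least 5; on null replicate 5 they lie at 0.18 and 0.11.

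Null replicate 5 was singled out by its high Rab values, so leaving it out lowers the Rab differences by construction. The values in this paragraph are therefore a description and no separate support for lower Rab genes. Without null replicate 5, 6 Rab genes were lower at an unadjusted p, which 5.96% of all genes then were, and 1 was higher, which 1.71% were. The 6 were Rab9 (-0.32, SE 0.10), Rab11a (-0.30, SE 0.09), Rab5a (-0.26, SE 0.10), Rab14 (-0.17, SE 0.07), Rab6a (-0.15, SE 0.05) and Rab1a (-0.11, SE 0.04), and the higher gene was Rab3d (0.12, SE 0.05). Rab1a and Rab9 then had all null-labelled arrays below the wild type-labelled arrays (1.47% of all genes), and Rab3d and the dim Rab7b had them all above (0.88%). The 4 arrays then left under the label null were those whose summed oligodendrocyte markers lay below every wild type-labelled array. No adjusted p of these Rab genes went below 0.661. Of the 33 Rab genes with a mean of at least 5, 24 were then lower and 9 higher, with a median of -0.09, beside -0.07 for all such genes.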

How the data were processed

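Each array was an Affymetrix MOE430A 2.0 chip with the cortical RNA of 1 mouse. The log2 values were deposited by the authors, who made them with GC-RMA, a method that corrects each probe for nonspecific binding by its GC content before normalization and summary per probe set, in a version not given in the sources used here. No further normalization or filter was applied, and the number of arrays limits the precision. Of 22690 probe sets, 64 are controls and stayed out. Of the 22626 tested, the platform annotation gave 1 gene for 20380, several for 691 and none for 1555, and symbols were updated for 20351 through RefSeq on GRCm38.p6. Of the Rab genes, 23 had 1 probe set and 27 several, and 7 of the 95 probe sets were of the types that can share sequence with other genes. Rab19, Rab26, Rab35, Rab36, Rab39, Rab39b, Rab42, Rab44 and Rab9b were not analysed here.

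Samples were grouped by label. Differences were fitted with limma 3.58.1 in R 4.3.3 (lmFit, eBayes), with Benjamini-Hochberg adjustment over all 22626 probe sets and a threshold of 0.05, and tested on simulated data. Counts over genes use 1 probe set a gene. Single genes were tested with exact two-sided permutation tests. The genes named with a value per array were the chromosome 7 neighbours of FE65, the Rab3 and Rab27 genes, the 8 Rab genes with the smallest p, the 3 with the largest difference each way among those with a mean of at least 5, those without overlap, and, of the regulators, the 8 with the smallest p and the GDIs. Rims2 was named after its values were seen. The Rab genes, roles and regulator lists were chosen with earlier results of these data known. The methods describe 5 littermate pairs, but which arrays are littermates is not in the labels, so the replicate number as a block was an alternative only. Alternatives were a replicate block, median centring, quantile normalization, a mean of at least 5, array weights, a robust prior with an intensity trend, values under 4 set to 4, the methods' *t*-test, the mean over probe sets, the platform's symbols, and leaving out each array.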

Additional observations from a re-analysis of the deposited data

Results flagged for a closer look

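A value was set apart where the highest or lowest array of a labelled group of 5 lay further from its nearest neighbour than 0.71 of the group's range. This was met by 9 of 118 groups (50 Rab genes and 9 regulators in both groups). The rule has a nominal rate of 1 in 20, or 5.9 groups, which takes the groups as independent. Genes on 1 array are not independent, and the rule was not applied to all genes. The counts are therefore not shown to be particular to the Rab genes. Null replicate 5 held 4 of the 9 and wild type replicate 2 held 3. On null replicate 5 these were Rab33a (6.87, next 6.56), Rab40b (9.70, next 8.89), Gdi2 (12.39, next 11.99) and the dim Rab7b (1.78, next 2.02), of which only Rab7b was low. On wild type replicate 2 they were Rab33a (5.39, next 6.42), Rab11b (10.43, next 10.84) and Rab9 (9.67, next 9.42), of which only Rab9 was high. The others were Rab4b on null replicate 1 (8.09, next 7.19) and the dim Rab25 on null replicate 4 (2.13, next 2.03).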

How the results depend on the processing

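No Rab gene and no regulator passed the adjusted threshold in any setting (0 in each), and the lowest adjusted p of a named gene was 0.469. The sign held in every alternative for 22 of the 24 named genes. The exceptions were dim: Rab30 (-0.0031 with array weights, -0.0082 with quantile normalization, -0.0187 to 0.0262 without single arrays) and Rab3b (-0.0006 with array weights, -0.0383 to 0.0395 without single arrays). The floor at 4 gave no value for Rab27a, Rab30, Rab38, Rab3b and Tbc1d13, and the filter on the mean gave none for these and Rab27b.

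At an unadjusted p, higher Rab genes (main count 1) numbered 0 with a mean of at least 5, the mean over probe sets, median centring and the trend with robust prior, and 0 to 2 without single arrays. The 2 came without wild type replicate 2 (Rab37 and Rab38). Lower Rab genes (1) numbered 4 with array weights, 0 with a mean of at least 5, quantile normalization and the trend, and 0 to 6 without single arrays (6 when null replicate 5 was omitted, 3 when wild type replicate 1 was). The count of Rab genes without overlap, higher (1), was 0 with the mean over probe sets, median centring and quantile normalization, and 1 to 2 without single arrays; lower (0), it was 0 to 2, with 2 each way without null replicate 5. Higher regulators (3) numbered 1 with a mean of at least 5 and with the trend, 6 with quantile normalization and 2 to 4 without single arrays. Lower regulators (0) numbered 7 with array weights, 2 with the floor at 4 and with the mean over probe sets, 1 with median centring, 3 with the methods' *t*-test, and 0 to 8 without single arrays (8 when null replicate 5 was omitted, 3 when wild type replicate 1 was). Over all 12393 genes, 323 were lower in the main fit, 492 with array weights, 236 with the methods' *t*-test and 378 with median centring. The mean over probe sets gave 301 lower genes and the floor at 4 gave 189. Without null replicate 5 the count of lower genes was 739, and without wild type replicate 1 it was 514. Higher genes numbered 165 in the main fit, 334 with quantile normalization and 267 without wild type replicate 2. The cause was not tested. The median over the Rab genes ran from -0.0470 to 0.0143.

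The replicate numbers were not shown to pair the mice: same-numbered arrays correlated in their deviations at 0.46 for replicate 1 and at 0.05 to 0.08 for the other 4, and only replicate 1 correlated best with its own number. With the replicate block, Rab genes numbered 0 higher and 1 lower, and regulators 3 higher and 4 lower, at an unadjusted p, with 0 adjusted calls. Of all 12393 genes, 194 were higher and 450 lower at an unadjusted p in this fit.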
